A study of Mus musculus with 7 samples.

Results

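Macrophages and monocytes were followed through 32 genes in the prostates of mice that had been immunised to bring on autoimmune prostatitis, an inflammation of the gland (experimental autoimmune prostatitis). The genes were taken by symbol from a fixed list, and all 32 stood among the 16019 genes in the files. RNA was sequenced from 7 prostate samples, every one from mice in which the disease had been induced. Of these, 4 came from mice injected intraperitoneally with LIT-927, a small-molecule neutraligand that captures the chemokine CXCL12 before it reaches its receptors, at 25 mg/kg per day. The other 3 received the same amount of the solvent, methyl-β-cyclodextrin, and are called vehicle. Both groups were injected for 14 days. Strain, age and the number of animals per library are not stated in the labels, and mice without prostatitis were not analysed here. Nor do the labels say that each library came from its own animal, so every p-value below describes sample-to-sample spread, part of which may be technical.

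Macrophages take up and digest dead cells and microbes. Some live in a tissue for long periods and renew themselves under the growth factor CSF1, which signals through the receptor CSF1R. Others arise from blood monocytes, which enter an inflamed tissue and change their genes as they settle. The transcription factor PU.1, encoded by Spi1, and factors of the C/EBP family set up much of the myeloid gene programme. Fc receptors on these cells bind antibody-coated particles and signal through small adaptors that carry an activating motif named ITAM. The 32 genes span these roles, and 5 of them are also used by other leukocytes.

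Levels are given as FPKM, the fragments of a gene scaled to the length of the gene and to the fragments of the library. The library totals behind these values, recovered from the steps between them, were 32100860 to 35292137 fragments, so depth was even. Tissue make-up was not: between 22.2% and 72.3% of all FPKM in a library fell on its 10 most abundant genes. Svs1, a seminal vesicle secretory gene, ranged from 38.8 to 25356 FPKM, and Pbsn, the defining secretory gene of the mouse prostate, from 129 to 11311. Upk1a, a uroplakin gene of the lining of the bladder and urethra, stood apart in vehicle replicate 3 and LIT-927 replicate 3, at 172 and 253 FPKM against at most 10.1 in the other libraries. Its relative Upk3a did too, but Upk1b did not in LIT-927 replicate 3. Of the 32 genes, 30 reached 1 FPKM in some library. Cd163 and Siglec1 did not, and rested on 7 to 143 and 13 to 112 fragments.

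PU.1 binds GAGGAA-centred sequences, and the promoters of the listed genes were read for it because these genes share a cell type. RefSeq promoter windows (build GRCm38.p6, 250 bases before to 50 after a start site) were matched for 23 of the 32 genes, in 29 windows. The letters GAGGAA, on either strand, occurred in 14 of the 29 windows (48.3%) and in 28.3% of all 32851 windows of that length. The 14 windows belong to 12 of the 23 genes, since overlapping windows of Fcgr3 and of Ly6c2 hold the same sites. The longer GAGGAAGT, which contains them, occurred in 4 windows, of Cd53, Ly6c2 and Pf4, and in 3.20% of all windows. The C/EBP letters TTGCNNAA stood in 5 windows (17.2%), of 4 genes, against 10.8% of all. CACGTG, an E-box read by factors of lysosomal genes, stood in 1 window, of the lysosomal protease gene Lgmn, against 7.15% of all. A match of letters is a description and no measured binding site. Of the windows below, 6 are shown because they hold a match: those of Cd53, Pf4, Laptm5, Mrc1 and Cd68, with lower means with LIT-927, and that of Itgam, without one. The windows of Lyz2 and Csf1, which also had lower means, are shown as examples with no match. Capitals mark GAGGAA or GAGGAAGT, or their reverse complements, and each runs 5′ to 3′ on the strand of its gene.
Cd53, chr3:106790100-106790399, minus strand: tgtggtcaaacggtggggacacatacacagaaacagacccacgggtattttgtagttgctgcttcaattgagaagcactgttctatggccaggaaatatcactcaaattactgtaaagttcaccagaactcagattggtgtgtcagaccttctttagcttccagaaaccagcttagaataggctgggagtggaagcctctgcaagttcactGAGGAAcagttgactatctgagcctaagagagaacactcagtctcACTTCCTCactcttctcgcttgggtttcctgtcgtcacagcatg
Pf4, chr5:90772185-90772484, plus strand: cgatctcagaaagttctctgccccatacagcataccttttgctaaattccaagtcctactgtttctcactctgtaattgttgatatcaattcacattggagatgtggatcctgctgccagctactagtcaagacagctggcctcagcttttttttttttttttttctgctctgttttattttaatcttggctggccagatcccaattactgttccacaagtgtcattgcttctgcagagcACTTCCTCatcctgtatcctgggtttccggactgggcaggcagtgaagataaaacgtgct
Laptm5, chr4:130913066-130913365, plus strand: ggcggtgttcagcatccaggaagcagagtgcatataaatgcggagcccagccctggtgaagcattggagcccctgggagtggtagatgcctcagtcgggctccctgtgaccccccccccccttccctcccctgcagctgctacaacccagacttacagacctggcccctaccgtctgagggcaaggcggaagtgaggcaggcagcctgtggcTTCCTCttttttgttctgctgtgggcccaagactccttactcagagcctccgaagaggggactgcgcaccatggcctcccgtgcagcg
Mrc1, chr2:14229164-14229463, plus strand: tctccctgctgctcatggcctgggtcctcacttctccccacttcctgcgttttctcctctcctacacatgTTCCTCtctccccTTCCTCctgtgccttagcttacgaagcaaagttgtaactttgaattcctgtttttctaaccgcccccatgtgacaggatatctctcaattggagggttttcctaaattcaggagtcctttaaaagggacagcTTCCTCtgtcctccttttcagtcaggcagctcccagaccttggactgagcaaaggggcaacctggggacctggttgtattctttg
Cd68, chr11:69666121-69666420, minus strand: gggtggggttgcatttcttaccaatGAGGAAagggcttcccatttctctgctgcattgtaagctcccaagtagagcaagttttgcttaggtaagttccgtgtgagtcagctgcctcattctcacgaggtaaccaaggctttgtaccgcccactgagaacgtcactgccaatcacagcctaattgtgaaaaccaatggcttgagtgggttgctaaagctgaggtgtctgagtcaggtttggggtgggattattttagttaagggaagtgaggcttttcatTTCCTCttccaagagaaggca
Itgam, chr7:128062390-128062689, plus strand: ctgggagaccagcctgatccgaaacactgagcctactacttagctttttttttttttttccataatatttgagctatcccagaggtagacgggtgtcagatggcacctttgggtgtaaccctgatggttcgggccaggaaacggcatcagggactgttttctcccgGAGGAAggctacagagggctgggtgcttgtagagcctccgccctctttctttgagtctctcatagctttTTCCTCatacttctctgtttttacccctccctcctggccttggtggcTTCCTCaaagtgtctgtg
Lyz2, chr10:117282223-117282522, minus strand: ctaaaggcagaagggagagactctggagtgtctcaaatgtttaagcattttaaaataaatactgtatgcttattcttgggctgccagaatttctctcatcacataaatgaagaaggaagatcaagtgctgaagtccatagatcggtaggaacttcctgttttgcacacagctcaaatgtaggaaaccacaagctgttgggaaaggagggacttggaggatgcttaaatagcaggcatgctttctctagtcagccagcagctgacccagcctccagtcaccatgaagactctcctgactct
Csf1, chr3:107760420-107760719, minus strand: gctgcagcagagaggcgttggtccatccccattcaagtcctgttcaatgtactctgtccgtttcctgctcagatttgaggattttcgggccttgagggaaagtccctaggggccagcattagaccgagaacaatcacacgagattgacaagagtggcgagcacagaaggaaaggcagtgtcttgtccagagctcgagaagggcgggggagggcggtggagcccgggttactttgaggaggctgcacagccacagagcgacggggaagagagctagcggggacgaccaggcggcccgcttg

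Most of the 32 genes were lower with LIT-927, and none passed the test. Of the 32, 26 had a lower mean of log2(FPKM + 1) with LIT-927 and 6 a higher one, while 44.5% of all genes had a lower mean. The median difference (LIT-927 minus vehicle) was -0.68 over the 32 genes and 0.02 over all genes on that scale. No gene was called at an adjusted p under 0.05 (limma with Benjamini-Hochberg adjustment over all genes), among the 32 or among the 16019 (0%), and each of the 32 had an adjusted p of 0.998. At an unadjusted limma p under 0.05, 11 of the 32 were lower, against 2.96% of all genes lower, and 589 of the 16019 genes passed it in either direction. All LIT-927 libraries lay below all vehicle libraries for 4 of the 32, Csf1, Cd68, Siglec1 and Fcgr3, and for 2.12% of all genes. In whole-tissue RNA, fewer macrophages and less of a transcript per macrophage cannot be told apart.

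**Figure D1:**
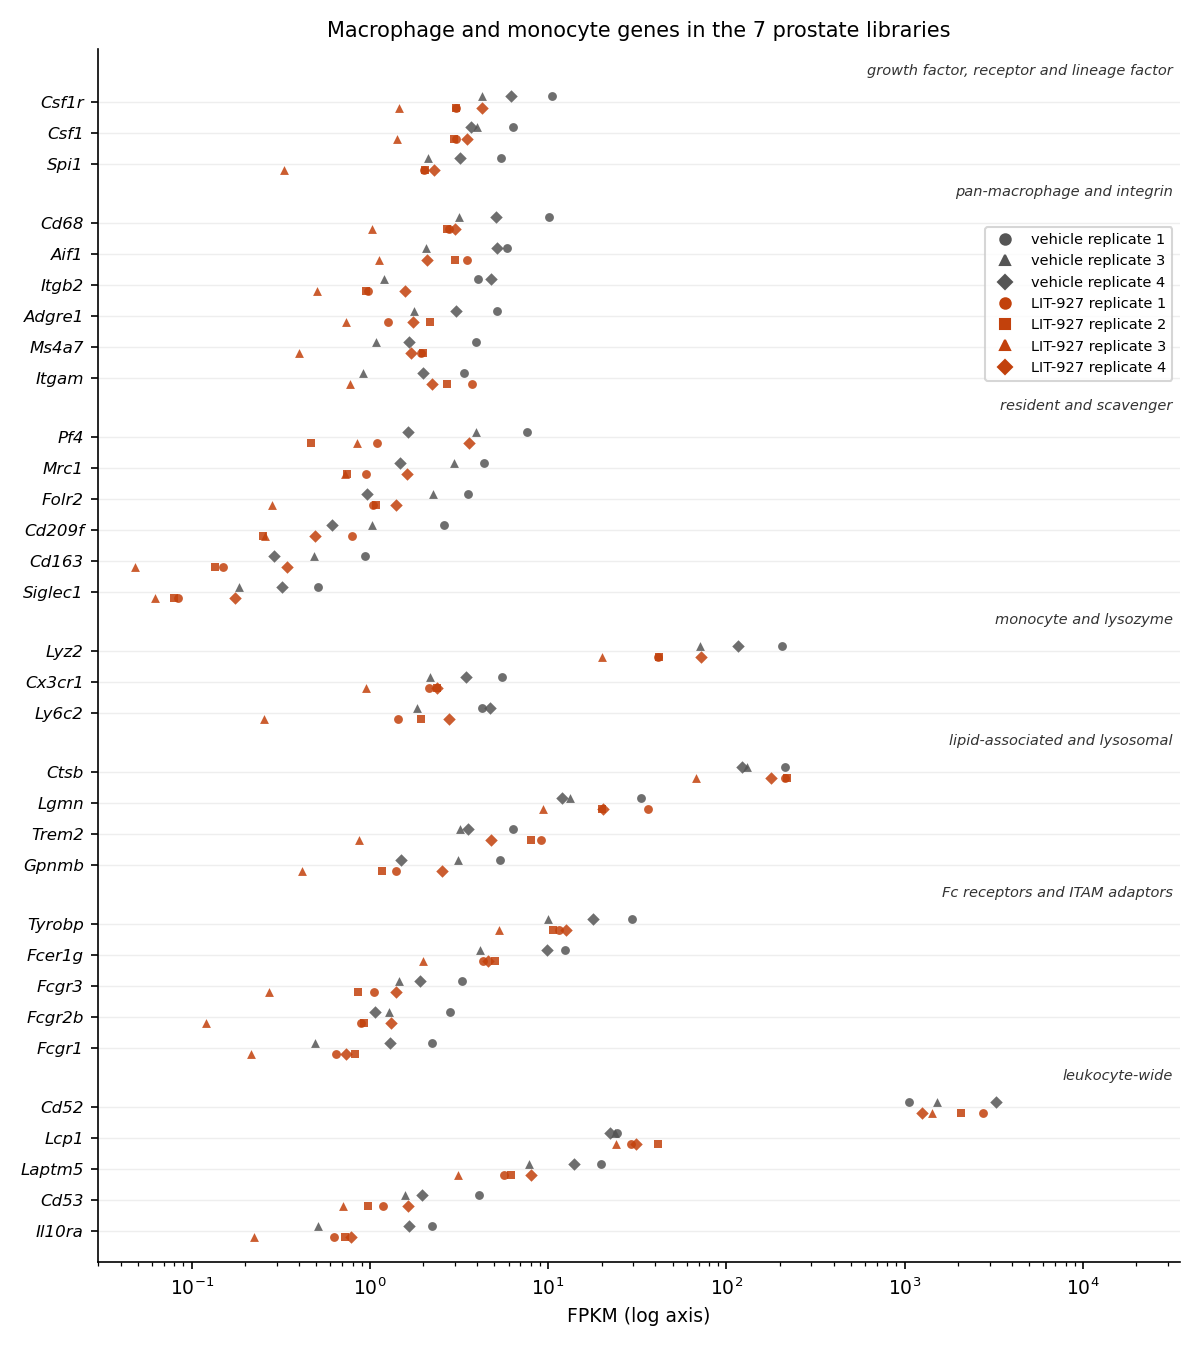
FPKM of the 32 genes (log axis) in each of the 7 libraries, by the role of the gene, with vehicle in grey, LIT-927 in orange and the marker shape giving the replicate number. LIT-927 replicate 3 is the lowest library for 28 of the genes and vehicle replicate 1 the highest for 24, counts that were not made over all genes.

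The growth factor axis was lower in all 3 of its genes, with 1 below an unadjusted p of 0.05 and a median difference of -0.80. Csf1, the growth factor on which most tissue macrophages depend (chromosome 3, 107741048 to 107760469, minus strand, mm10), was at 6.37, 3.97 and 3.68 FPKM in vehicle replicates 1, 3 and 4 and at 3.05, 2.98, 1.41 and 3.53 in LIT-927 replicates 1 to 4. The groups did not overlap, although the highest LIT-927 library lay close under the lowest vehicle library. Its mean was 2.74 ± 0.919 (SD, n = 4) against 4.68 ± 1.48 FPKM (SD, n = 3), a difference of -0.61 (SE 0.31, exact permutation p = 0.0571, two-sided).

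Its receptor gene, Csf1r, was at 10.5, 4.28 and 6.17 FPKM with vehicle and at 3.05, 3.04, 1.46 and 4.29 with LIT-927. Only LIT-927 replicate 4 reached the vehicle range, at the level of vehicle replicate 3. The mean of Csf1r with LIT-927 was 42.3% of that with vehicle, a difference of -0.99 with a 95% interval of -1.85 to -0.13. Spi1, the gene of PU.1, was at 5.43, 2.12 and 3.22 FPKM with vehicle and at 2.02, 2.04, 0.331 and 2.29 with LIT-927. Here 3 LIT-927 libraries sat together beside the lowest vehicle library, and replicate 3 lay far below them. The difference of Spi1 was -0.80 (SE 0.40), within the spread between libraries.

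Among the general macrophage markers and integrins, 5 of 6 were lower, 2 of them at an unadjusted p under 0.05. Cd68, a glycoprotein of the lysosome and endosome membranes that is used to stain macrophages (chromosome 11, 69664213 to 69666153, minus strand), was at 10.1, 3.15 and 5.11 FPKM with vehicle and at 2.80, 2.72, 1.02 and 3.01 with LIT-927. The groups were separate, again by a narrow gap. The LIT-927 mean of Cd68 was 39.1% of the vehicle mean, a difference of -1.001 (SE 0.41, exact permutation p = 0.0286, the smallest that 3 against 4 libraries can give). Adgre1, which encodes the surface marker F4/80, was at 5.18, 1.77 and 3.04 FPKM against 1.26, 2.18, 0.735 and 1.74. Its groups overlapped, because LIT-927 replicate 2 exceeded vehicle replicate 3, and its difference was -0.76 (SE 0.34). Aif1, the calcium-binding protein IBA1, differed by -0.62, and Ms4a7, a membrane protein of tissue macrophages, by -0.33 (SE 0.39), both with overlapping groups.

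Both chains of the integrin Mac-1 are on the list, and their differences had opposite signs, which were not tested against each other. Itgb2, the β2 chain shared by several leukocyte integrins (chromosome 10, 77530252 to 77565708, plus strand), was at 4.04, 1.196 and 4.78 FPKM with vehicle and at 0.977, 0.956, 0.502 and 1.57 with LIT-927. Vehicle replicate 3 was the one vehicle library within the LIT-927 range. The Itgb2 mean was 30.0% of that with vehicle, a difference of -1.02 with an interval of -1.89 to -0.16. Itgam, the αM chain that joins it, was at 3.37, 0.915 and 1.98 FPKM with vehicle and at 3.74, 2.71, 0.772 and 2.24 with LIT-927. The groups covered each other almost fully, and the difference of Itgam was 0.12 with an interval of -0.84 to 1.08.

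Genes of resident and scavenging macrophages were lower in 6 of 6, and 4 of them, Mrc1, Cd163, Cd209f and Siglec1, were below an unadjusted p of 0.05. Mrc1, the mannose receptor CD206 (chromosome 2, 14229392 to 14332057, plus strand), was at 4.39, 2.96 and 1.47 FPKM with vehicle and at 0.949, 0.742, 0.726 and 1.62 with LIT-927. Only vehicle replicate 4 fell inside the LIT-927 range. The mean of Mrc1 was 34.3% of that with vehicle, a difference of -0.92 (SE 0.31, 95% interval -1.63 to -0.21). Siglec1, the sialic acid receptor sialoadhesin, was at 0.509, 0.186 and 0.321 FPKM against 0.0844, 0.0797, 0.062 and 0.176, so its groups were separate at a low level. Cd163, the haemoglobin scavenger receptor, was at 0.942, 0.485 and 0.289 FPKM with vehicle and at 0.149, 0.136, 0.0484 and 0.344 with LIT-927, where replicate 4 overlapped vehicle. Its mean was 0.169 ± 0.125 (SD, n = 4) against 0.572 ± 0.335 FPKM (SD, n = 3).

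The other 3 genes of this group are a chemokine, a folate receptor and a lectin. Pf4, the chemokine CXCL4, which platelets also carry, was at 7.62, 3.92 and 1.64 FPKM with vehicle and at 1.09, 0.468, 0.848 and 3.61 with LIT-927. Its spread was wide in both groups, and its difference was -1.09 with an interval of -2.28 to 0.10. Folr2, the folate receptor β of resident macrophages, had a difference of -0.70 (SE 0.34), and the lectin gene Cd209f one of -0.67 (SE 0.28). Within vehicle, this group ran opposite to most of the rest: 5 of its 6 genes were lower in replicate 4 than in replicate 3, Pf4 at 0.418 of the replicate 3 level, Folr2 at 0.423 and Mrc1 at 0.497. Of the 26 genes with a lower mean with LIT-927, 18 were higher in vehicle replicate 4 than in replicate 3 and 8 were lower. Il10ra stood at 3.24 times and Ly6c2 at 2.57 times the replicate 3 level. The typical gene was also lower in replicate 4: the median-of-ratios factors used for scaling below were 1.08 for vehicle replicate 3 and 0.663 for replicate 4. After that scaling Cd163 was at 0.451 and 0.436 in vehicle replicates 3 and 4, Cd209f at 0.957 and 0.921, Mrc1 at 2.75 and 2.22, Folr2 at 2.11 and 1.45, and Pf4 at 3.64 and 2.47.

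The monocyte and lysozyme genes were lower in 3 of 3, with a median difference of -0.86. Lyz2, the lysozyme gene of myeloid cells (chromosome 10, 117277331 to 117282321, minus strand), had the most negative difference of the 32 genes on log2(FPKM + 1). That scale understates changes of low genes. As a percent of the vehicle mean, Cd163 (29.6%), Siglec1 (29.7%), Itgb2 (30.0%) and Cd209f (31.8%) were lower than Lyz2. Lyz2 was at 205, 71.1 and 117 FPKM with vehicle and at 41.6, 41.7, 19.98 and 71.7 with LIT-927. LIT-927 replicate 4 met vehicle replicate 3, and the other LIT-927 libraries were lower than any vehicle library. The mean of Lyz2 was 33.4% of that with vehicle, a difference of -1.56 (SE 0.49, 95% interval -2.69 to -0.43). Its neighbour Lyz1 is a near copy, so reads of the pair may have been shared in the authors' counting.

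Ly6c2, a surface marker of inflammatory monocytes, was at 4.25, 1.84 and 4.72 FPKM with vehicle and at 1.44, 1.94, 0.256 and 2.79 with LIT-927. Its groups overlapped through vehicle replicate 3, and the difference was -0.86 (SE 0.43). It is close in sequence to Ly6c1, an endothelial gene, with the same limit on the counting. Cx3cr1, the fractalkine receptor of patrolling monocytes and resident macrophages, was at 5.52, 2.16 and 3.46 FPKM against 2.16, 2.38, 0.955 and 2.38. It differed by -0.64 (SE 0.33), and its annotated span overlaps several other genes.

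The lipid-associated and lysosomal genes had a different pattern, with 1 of 4 lower and a median difference of 0.07. Trem2, a lipid-sensing receptor of macrophages, was at 6.32, 3.20 and 3.54 FPKM with vehicle and at 9.19, 8.01, 0.870 and 4.81 with LIT-927. LIT-927 held both the 2 highest libraries and the lowest one, and the difference of Trem2 was 0.12 with an interval of -1.26 to 1.49. Ctsb, the lysosomal protease cathepsin B that many cell types make, was at 214, 130 and 122 FPKM against 212, 218, 68.0 and 177, a difference of 0.03. Lgmn, the lysosomal protease legumain, was at 33.4, 13.3 and 11.9 FPKM against 36.5, 20.1, 9.32 and 20.3, a difference of 0.14. Gpnmb, a glycoprotein of lipid-laden macrophages, was the one gene of the group with a lower mean, at 1.38 ± 0.874 (SD, n = 4) against 3.33 ± 1.95 FPKM (SD, n = 3), with overlapping groups. Its difference was -0.83 (SE 0.41).

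The Fc receptors and ITAM adaptors were lower in 5 of 5, with a median difference of -0.76. Fcgr3, the activating low-affinity IgG receptor (chromosome 1, 171051174 to 171064935, minus strand), was at 3.28, 1.45 and 1.91 FPKM with vehicle and at 1.06, 0.857, 0.272 and 1.41 with LIT-927. Its groups were separate by the width of the gap between vehicle replicate 3 and LIT-927 replicate 4. The difference of Fcgr3 was -0.76 (SE 0.29, exact permutation p = 0.0571, two-sided), and its mean was 40.6% of that with vehicle. Fcgr2b, the inhibitory IgG receptor that B cells also carry, differed by -0.58 and the high-affinity receptor gene Fcgr1 by -0.49, both with overlapping groups. The ratio of inhibitory to activating receptor, Fcgr2b to Fcgr3, ran from 0.558 to 0.883 with vehicle and from 0.445 to 1.09 with LIT-927, so the groups overlapped in this too. These receptor genes resemble each other in sequence, so reads may have been shared between them.

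On the FPKM scale the signalling adaptors were higher than the Fc receptors in every library. Tyrobp, the adaptor DAP12 that pairs with TREM2 and other receptors, was at 29.7, 9.97 and 17.8 FPKM with vehicle and at 11.5, 10.6, 5.31 and 12.6 with LIT-927. Vehicle replicate 3 lay among the LIT-927 libraries, and the difference was -0.81 (SE 0.41). Fcer1g, the γ chain used by activating Fc receptors, was at 12.4, 4.13 and 9.86 FPKM against 4.33, 5.02, 1.99 and 4.62, a difference of -0.91 (SE 0.41) with the same overlap. The ratio of Trem2 to Tyrobp was 0.199 to 0.321 with vehicle and 0.164 to 0.795 with LIT-927, a wider range that covers the vehicle one.

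**Figure D2:**
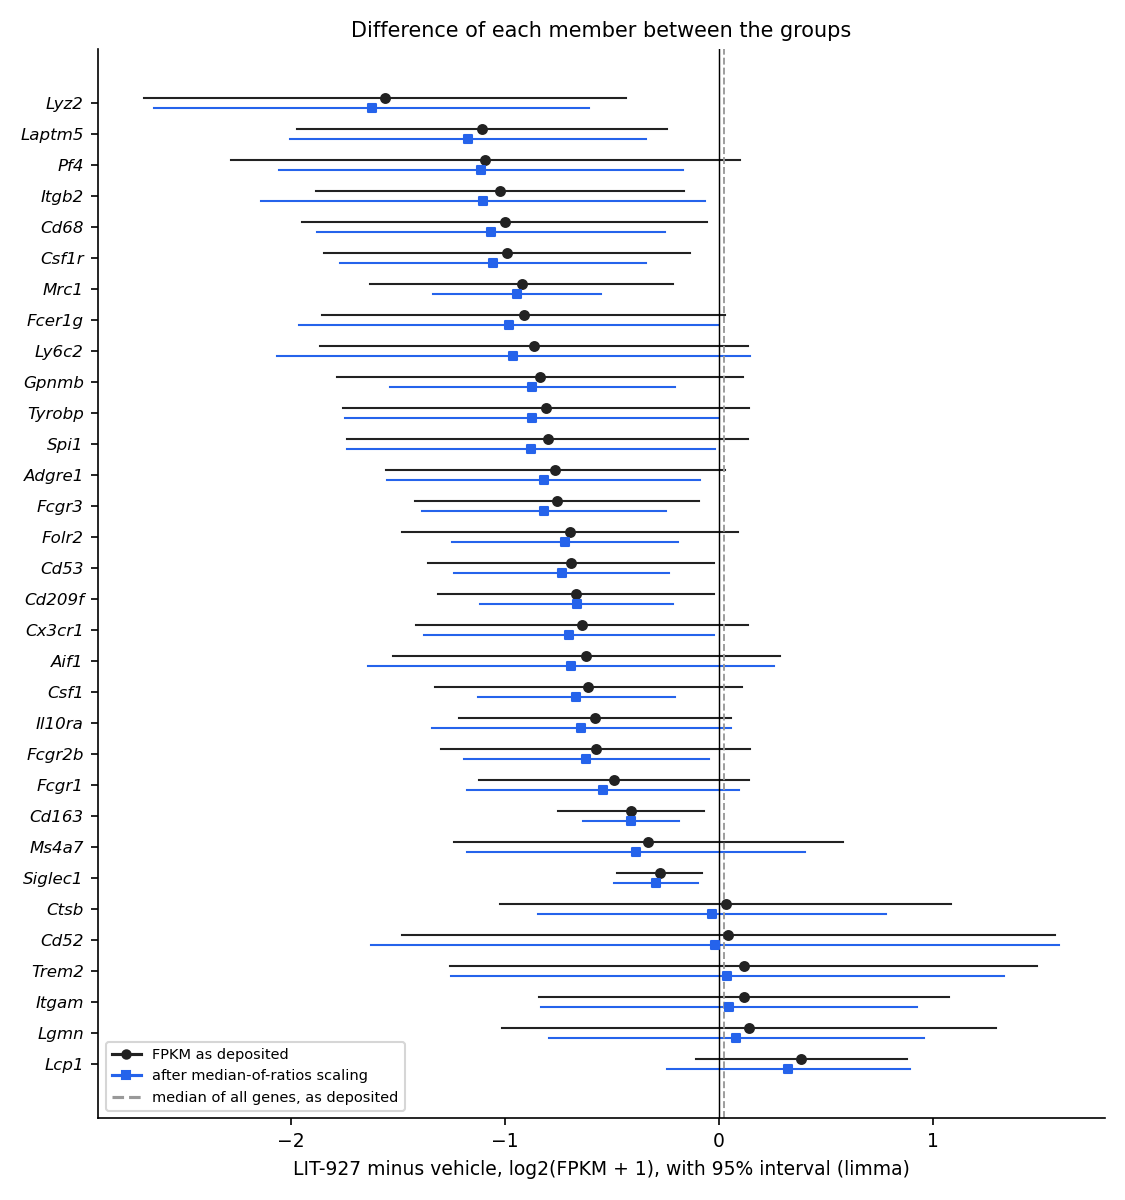
Difference of each of the 32 genes, as the LIT-927 mean less the vehicle mean of log2(FPKM + 1), with its 95% interval from limma, as deposited (black) and after median-of-ratios scaling (blue). Intervals of 11 genes lie wholly below 0 as deposited and of 20 after scaling, and no adjusted p was under 0.05 in either case.

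Among the 5 leukocyte-wide genes, 3 were lower and 2 were not. Laptm5, a lysosomal membrane protein of blood cells (chromosome 4, 130913125 to 130936141, plus strand), was at 19.7, 7.86 and 14.0 FPKM with vehicle and at 5.67, 6.17, 3.12 and 8.04 with LIT-927. Only LIT-927 replicate 4 exceeded a vehicle library, and the difference of Laptm5 was -1.11 (SE 0.37, 95% interval -1.98 to -0.24). Cd53, a tetraspanin of leukocytes, was at 1.13 ± 0.392 (SD, n = 4) against 2.55 ± 1.37 FPKM (SD, n = 3), a difference of -0.69. Il10ra, a chain of the interleukin-10 receptor, differed by -0.58 (SE 0.27). Cd52 was at 1063, 1517 and 3244 FPKM with vehicle and at 2773, 2063, 1429 and 1258 with LIT-927, far above every other gene here, and its difference was 0.05 with an interval of -1.48 to 1.57. CD52 is a surface glycoprotein of leukocytes that the epithelium of the male tract also makes, and the Cd52 level was 1063 FPKM or more in libraries where the pan-leukocyte gene Ptprc was at 0.456 to 3.23. Lcp1, the actin-bundling protein plastin-2, was at 24.2, 23.8 and 22.1 FPKM with vehicle and at 29.2, 41.4, 24.1 and 31.1 with LIT-927. Vehicle spread was narrow, and 3 of 4 LIT-927 libraries were above it, a difference of 0.39 (SE 0.21, exact permutation p = 0.0857, two-sided). The loci of Csf1r, Ctsb and Cd52 overlap Hmgxb3, Fdft1 and Crybg2 on the opposite strand, and with no strand setting stated, reads of such pairs cannot be told apart.

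**Figure D3:**
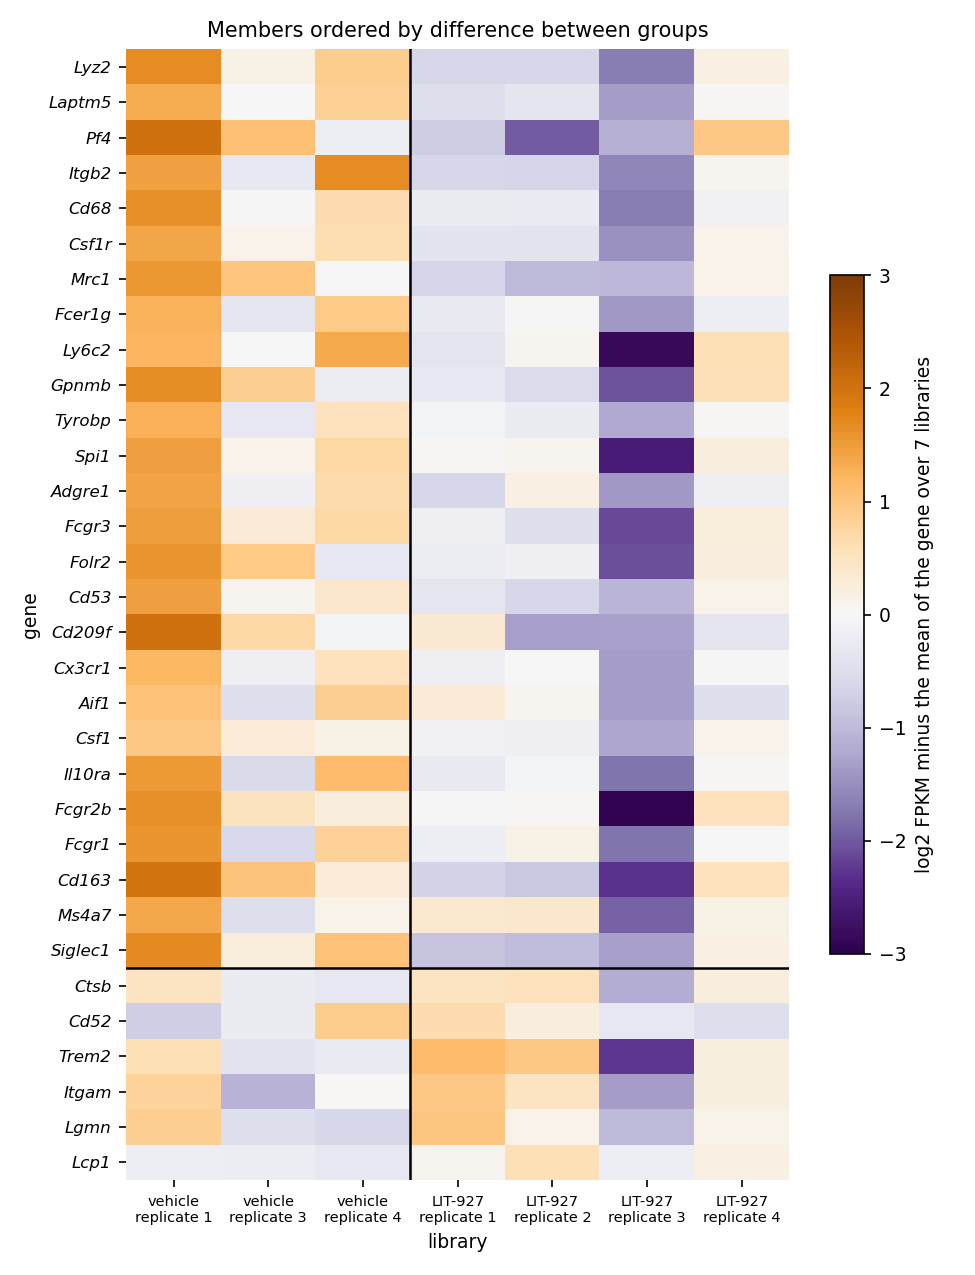
Each row is a gene and each column a library, coloured by log2 FPKM minus the mean of that gene over the 7 libraries, with genes ordered by their difference between groups. Above the horizontal line are the 26 genes with a lower mean with LIT-927, 24 of which were lowest in LIT-927 replicate 3, as were 4 of the 6 genes below the line. The lowest library was not counted over all genes.

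Vehicle replicate 1 was the highest vehicle library for most of the 32 genes, in either direction. It was so for 24 of the 26 with a lower mean and for 5 of the 6 with a higher mean. LIT-927 replicate 3 was the lowest of all libraries for 24 of the 26 and for 4 of the 6. The same counts over all genes were not made. The typical gene was also highest in vehicle replicate 1 among the vehicle libraries, with a median-of-ratios factor of 1.30 against 1.08 and 0.663. The factor of LIT-927 replicate 3 was 0.811, against 1.01 to 1.16 in the other LIT-927 libraries. Differences ran from -1.56 to -0.28 in the 26. The 6 genes with a higher mean, Ctsb, Cd52, Trem2, Itgam, Lgmn and Lcp1, had differences from 0.03 to 0.39. Trem2, Itgam and Lgmn were highest in LIT-927 replicate 1, where Akr1b7, an abundant gene of the vas deferens, was at 17099 FPKM. Akr1b7 was at 8408, 84.5 and 1597 FPKM with vehicle and at 8867, 15.9 and 5998 in the other LIT-927 libraries, so it was also lowest in LIT-927 replicate 3. Cebpa, a transcription factor of myeloid and epithelial cells, was at 17.2, 21.2, 1.62 and 14.1 FPKM with LIT-927 and 8.67, 4.37 and 7.03 with vehicle. The part of tissue make-up in the levels of these 6 genes was not tested.

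Scaling that is less affected by the most abundant genes separated the groups for more of the 32. With median-of-ratios factors of 0.663 to 1.30, 28 of the 32 genes had a lower mean, against 49.7% of all genes, and the median difference was -0.71 against 0.001 over all genes. All LIT-927 libraries then lay below all vehicle libraries for 14 of the 32, against 4.99% of all genes. At an unadjusted p under 0.05, 20 of the 32 were lower, against 5.51% of all genes, and no adjusted p among the 32 was under 0.568. Resident and scavenger genes were separate in 5 of 6. Scaled Mrc1 was at 3.37, 2.75 and 2.22 with vehicle and at 0.837, 0.733, 0.896 and 1.40 with LIT-927, so the groups no longer overlapped. The scaled difference of Mrc1 was -0.94 with an SE of 0.16, against 0.31 as deposited. The signs of Ctsb and Cd52 turned under this scaling, to -0.03 and -0.02.

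The libraries with high Upk1a, vehicle replicate 3 and LIT-927 replicate 3, were also low in many of these genes. LIT-927 replicate 3 was the lowest of all 7 libraries for 28 of the 32. Set side by side, 31 of the 32 genes were lower in the LIT-927 library of this pair. The level in it was a median of 36.2% of the vehicle library, from 9.45% for Fcgr2b to 101% for Lcp1, while the median over all genes was 75.7%. Without both libraries, 26 of the 32 genes still had a lower mean, against 32.04% of all genes, and 18 lay wholly below vehicle, against 5.2% of all genes. Among these 18 were Csf1r, Spi1, Adgre1, Cd68, Itgb2, Lyz2, Tyrobp and Laptm5. Without vehicle replicate 1 alone, the median difference of the 32 genes was -0.40, against 0.14 over all genes, and 26 had a lower mean, against 29.1% of all genes. In that setting 1 of the 32 was lower at an unadjusted limma p under 0.05, a count that was not made over all genes.

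Ptprc, which encodes the pan-leukocyte antigen CD45, was at 3.23, 1.32 and 2.63 FPKM with vehicle and at 0.657, 1.04, 0.456 and 1.11 with LIT-927, with separate groups. Relative to Ptprc in the same library, a reference chosen after its values were seen, the log2 ratios of the 32 genes had a median difference of 0.31, against 1.61 over all 14532 genes so compared. In this ratio 6 of the 32 were lower with LIT-927, against 4.01% of all genes. Every LIT-927 ratio lay above every vehicle ratio for 7 of the 32, against 52.4% of all genes. The limma test on these ratios called 5 of the 32, Ctsb, Itgam, Lcp1, Lgmn and Trem2, all higher, while it called 60.2% of all genes. The ratio of Lyz2 to Ptprc was 44.2 to 63.3 with vehicle and 40.0 to 64.4 with LIT-927, and that of Csf1r was 2.34 to 3.26 and 2.92 to 4.64 so both overlapped between the groups. Itgam stood apart from them, at ratios of 0.691 to 1.04 with vehicle and 1.69 to 5.69 with LIT-927. Lcp1 was at 18.02 times Ptprc or less with vehicle and at 27.9 to 52.8 times with LIT-927. Against Adgre1, the Csf1r ratio was 2.03 to 2.41 with vehicle and 1.39 to 2.47 with LIT-927.

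**Figure D4:**
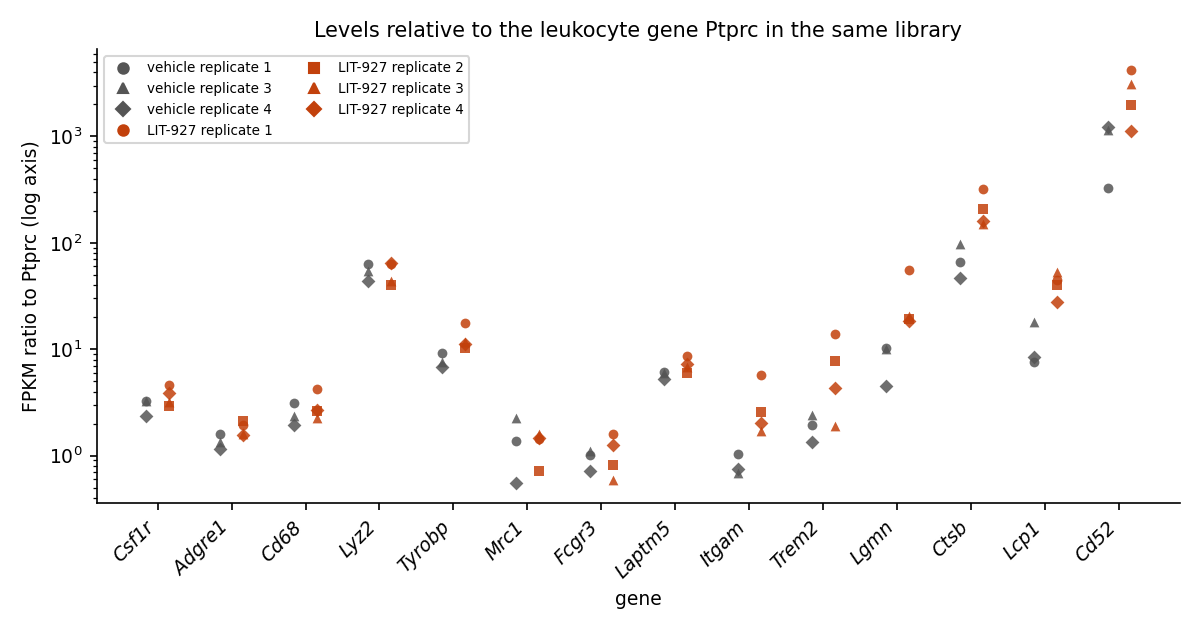
FPKM of 14 genes divided by that of Ptprc in the same library (log axis), with vehicle in grey and LIT-927 in orange. Lyz2, Csf1r and Laptm5 ratios overlap between the groups. Those of Tyrobp, Itgam, Lgmn, Ctsb and Lcp1 are higher in every LIT-927 library than in any vehicle library, as are those of 52.4% of all genes.

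Other genes of the same pathways were taken from 5 lists, and no gene of them was called. Of 11 ligands, receptor chains and signalling partners of CSF1R and of the CSF2 and CSF3 receptors, 8 had a lower mean, with a median difference of -0.03. Csf2rb, the shared β chain of the GM-CSF receptor, was at 0.764 ± 0.453 (SD, n = 4) against 1.74 ± 0.683 FPKM (SD, n = 3). Csf3r, the G-CSF receptor that neutrophils carry most, was at 0.104 ± 0.0677 against 0.342 ± 0.105 FPKM, and both genes had separate groups.

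Of 18 ITAM kinases, phosphatases and inhibitory receptors, 12 had a lower mean, 6 of them at an unadjusted p under 0.05. Pirb, an inhibitory receptor for MHC class I, was at 0.346 ± 0.168 (SD, n = 4) against 1.12 ± 0.487 FPKM (SD, n = 3), and Fcgr4, another activating IgG receptor, differed by -0.66 (SE 0.20). Of 13 macrophage transcription factors, 11 had a lower mean and 1 passed an unadjusted p of 0.05, Maf, which helps keep macrophages differentiated, at 2.14 ± 0.841 against 5.34 ± 2.95 FPKM. Within vehicle, Maf was at 8.56, 4.71 and 2.75 FPKM in replicates 1, 3 and 4. It was lower in replicate 4 than in replicate 3, as 5 of the 6 resident genes were, and as the typical gene was before scaling.

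Of 24 other tissue macrophage genes, 22 had a lower mean, with a median difference of -0.70, close to that of the 32. Ms4a6d was at 0.622 ± 0.348 (SD, n = 4) against 2.20 ± 1.31 FPKM (SD, n = 3), and Timd4, a receptor for dying cells on resident macrophages, at 0.0545 ± 0.0654 against 0.195 ± 0.0798. Of 14 genes of monocyte recruitment and inflammatory macrophages, 11 had a lower mean and 5 had every LIT-927 library below vehicle. Among them Chil3, a lectin-like gene of monocytes, was at 0.0245 ± 0.0192 FPKM against 0.176 ± 0.0528. Ccl2, the main attractant of CCR2-bearing monocytes, differed by -0.88 and had separate groups.

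Markers of other cell types also had lower means with LIT-927. The summed FPKM of 5 pan-leukocyte markers ran from 8.4 to 22.9 with vehicle and from 3.1 to 12.5 with LIT-927, with 4 of 5 lower. Dendritic cell markers were lower in 9 of 9 (3.0 to 6.9 against 0.9 to 2.4), T and NK cell markers in 11 of 11 (7.2 to 23.4 against 2.4 to 7.5) and neutrophil markers in 7 of 8 (13.2 to 29.0 against 0.3 to 37.8). Outside the leukocytes, fibroblast markers were lower in 8 of 8 with a median difference of -0.94 and endothelial markers in 8 of 8 with -0.81. Both were more negative than the -0.68 of the 32 genes on log2(FPKM + 1), which understates changes of low genes. With a pseudocount of 0.1 the median of the 32 genes was -1.09, and the medians of these marker lists were not worked out on that scale. No fibroblast or endothelial marker had separate groups as deposited, and after median-of-ratios scaling 0 of 8 and 1 of 8 did, against the 4.99% of all genes. As deposited, 4 of 11 T and NK cell and 5 of 8 neutrophil markers had separate groups, against 4 of the 32 genes. So did 2 of 5 pan-leukocyte and 2 of 9 dendritic cell markers, against 2.12% of all genes. None of the 7 B and plasma cell and 6 mast cell markers did. After median-of-ratios scaling the first 4 counts were 4 of 11, 5 of 8, 3 of 5 and 3 of 9, and 14 of the 32. Basal epithelial markers were lower in 5 of 5, and 4 of these 5 had separate groups after that scaling. None of the markers on these lists was at 0 in all libraries, and their part in the lower macrophage genes was not tested.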

How the data were processed

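Total RNA of mouse prostate was made into libraries with a VAHTS Universal V6 kit, per the labels' protocols, and grouped by the labelled treatment. Per the submitters' processing notes, fastp, HISAT2, HTSeq and the build mm10 were used. Versions, settings, strand and annotation were not given in the sources used. The authors deposited FPKM for 16019 genes. The headers do not name the unit, which was read from the values: whole fragments could be recovered for all 16019 genes within 0.01 fragments. FPKM are relative to the library, so abundant secretory genes lower the others.

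Differences are LIT-927 minus vehicle on log2(FPKM + 1), which understates changes of low genes. They were fitted over all genes, without a filter, with limma 3.58.1 in R 4.3.3 (mean-variance trend, no covariate), with Benjamini-Hochberg adjustment and a threshold of 0.05. Exact permutation tests are two-sided over 35 divisions of the libraries. Coordinates come from GENCODE M21, which matched 15571 symbols. Named genes are all 32 listed genes, the 2 smallest p of each pathway list (1 of these genes and 1 promoter motif are not reported here), Ptprc and Svs1, and, chosen after values were seen, Pbsn, Upk1a, Akr1b7 and Cebpa. Genes and lists were chosen with earlier results of these data known, so no test over a list is given. Csf2, Vsig4 and Il10 were on a list and not analysed here. The code was tested on simulated data. Alternatives were another pseudocount, a minimum of 1 FPKM in 3 libraries, 2 scalings, leaving out the most abundant genes, voom on recovered fragments, library weights, a replicate block, and leaving out libraries. Ratios to reference genes were added after values were seen. Tables were made with Python 3.11.15.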

Additional observations from a re-analysis of the deposited data

Results flagged for a closer look

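In the LIT-927 group of 4 libraries, replicate 3 lay so far below the others that it exceeded the 95% limit of Dixon's outlier ratio for 4 of the 32 genes. Spi1 was at 0.331 FPKM there and at 2.02 to 2.29 in the other LIT-927 libraries. Cd68 was at 1.02 FPKM against 2.72 to 3.01, Ms4a7 at 0.399 against 1.70 to 1.998, and Cx3cr1 at 0.955 against 2.16 to 2.38. Chance alone gives such a value in about 1 in 20 groups, and the genes share their libraries, so these are not 4 separate events. Without this library, 26 of the 32 genes still had a lower mean with LIT-927, and their median difference was -0.50.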

How the results depend on the processing

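The 26 genes with a lower mean kept that direction without any one library in 25 cases, and 23 were lower in each of the 16 alternatives without a reference gene that tested them, 4 of these 23 not being tested at the FPKM minimum. With library weights (0.181 to 3.80), 466 of all genes and 1 of the 32, Mrc1 (-0.98, limma adjusted p = 0.0487), were called. The median difference was -0.23 with 23 of the 32 lower, and Tyrobp was at -0.035, Fcer1g at -0.11 and Il10ra at -0.011. Vehicle replicates 1, 3 and 4 had weights of 0.434, 3.41 and 0.181. The weighted vehicle mean thus rested mostly on replicate 3, a Upk1a-high library. With the most abundant genes left out 1 gene of all was called and none of the 31 tested. Relative to Ptprc, 8751 genes and 5 of the 32 were called, and relative to Coro1a 3 genes and none of the 32. The others called none. The median difference was -1.22 with voom and -0.89 to -0.40 without single libraries. It was 0.31 relative to Ptprc, 0.16 relative to Coro1a, 0.052 relative to Pecam1 and -0.19 relative to Col1a2. Over all genes the medians relative to these references were 1.61, 1.45, 1.35 and 1.11. Genes with a lower mean numbered 6 relative to Ptprc, 9 to Coro1a, 13 to Pecam1 and 21 to Col1a2. Of all genes, 4.01%, 5.34%, 6.28% and 9.16% had a lower mean relative to these references. Without single libraries 26 to 31 of the 32 had a lower mean, against 29.1% to 75.0% of all genes. Genes with separate groups in either direction, 4 as deposited, numbered 14 with median-of-ratios or upper-quartile scaling and 13 with the most abundant genes left out. All LIT-927 libraries then lay below vehicle for 4.99%, 5.06% and 4.55% of all genes. Without both Upk1a-high libraries they numbered 19, 18 of them below vehicle, against 5.2% of all genes below. Relative to Ptprc they numbered 7, all higher with LIT-927, against 52.4% of all genes higher. They numbered 0 relative to Pecam1 and 1, lower, relative to Col1a2, against 0.117% and 0.323% of all genes lower. Without single libraries they numbered 5 to 18 (18 without vehicle replicate 3, 15 without LIT-927 replicate 4, 10 without vehicle replicate 4). All LIT-927 libraries lay below vehicle for 4.05%, 4.76% and 16.8% of all genes in these named settings, and for 2.50% to 3.29% in the others. The median over all genes moved to 0.14 without vehicle replicate 1, to -0.12 without vehicle replicate 4 and to 0.12 without the Upk1a-high pair.

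Single genes changed sign. Library weights gave Aif1 0.17, Fcgr1 0.036 and Ms4a7 0.29. Median-of-ratios scaling gave Cd52 -0.017 and Ctsb -0.030, upper-quartile scaling -0.042 and -0.054, and leaving out abundant genes Ctsb -0.021. Without single libraries, Cd52 ran from -0.31 to 0.50, Ctsb from -0.13 to 0.42, Itgam from -0.19 to 0.41, Lgmn from -0.15 to 0.59, Ms4a7 from -0.60 to 0.028 and Trem2 from -0.17 to 0.65. The cause was not tested.

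The labels share replicate numbers without a stated pairing, and deviations of same-numbered libraries correlated at 0.578, 0.757 and -0.169, so the numbers were not taken as pairs. A replicate block called 0 genes, gave a median difference of -0.71 with 29 of the 32 lower, and turned Cd52 to -0.023, Ctsb to -0.13 and Trem2 to -0.11. Depth limits Cd163, Siglec1 and Fcgr2b, at 6 to 146 fragments. Among others it also limits Ly6c2 (7 to 142 fragments), Pf4 (9 to 151), Folr2 (12 to 160) and Cd209f (13 to 138).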
